A study of Arabidopsis thaliana with 222 samples.

Results

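The ACC synthases and their regulator ETO1 were followed through all 37 root groups of the experiment. The members were the 10 rows of the count matrix with the gene identifiers of ACS1 (AT3G61510), ACS2 (AT1G01480), ACS4 (AT2G22810), ACS5 (AT5G65800), ACS6 (AT4G11280), ACS7 (AT4G26200), ACS8 (AT4G37770), ACS9 (AT3G49700, also named ETO3), ACS11 (AT4G08040) and ETO1 (AT3G51770), of 32311 rows in all. The rule used identifiers alone, though the family was proposed with earlier results of these data known. Of the 10, ACS2, ACS5, ACS6, ACS7, ACS9, ACS11 and ETO1 had enough counts to be tested, and ACS1, ACS4 and ACS8 did not. ACS9 was near the limit: 37 of 222 libraries reached the 0.542 CPM that the filter asks for, 12 of them with the strain RMF27, and it also passed when the RMF27 libraries were left out.

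Ethylene is made in plants from S-adenosylmethionine. ACC synthase (ACS) turns it into 1-aminocyclopropane-1-carboxylic acid (ACC), usually the limiting step, and ACC oxidase turns ACC into ethylene. The ACS proteins differ at the C-terminus: type 1 (ACS1, ACS2, ACS6) carries sites for MAP kinases and calcium-dependent kinases that stabilize the protein, type 2 (ACS4, ACS5, ACS8, ACS9 and, in the classification used here, ACS11) lacks the MAP kinase sites, and type 3 (ACS7) has a short end. ETO1 is an adaptor of a CUL3 ubiquitin ligase that binds type 2 proteins and leads them to degradation. Dominant changes in the C-terminus of ACS5 (eto2) and ACS9 (eto3) give seedlings that overproduce ethylene. Transcript levels, which were measured here, say nothing of this control of the protein.

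The libraries came from roots of Arabidopsis thaliana seedlings that were germinated without microbes and then grown on plates with 1 bacterial strain (monoassociation) or with no bacteria (NB). The plants were 4 lateral root mutants and the wild type Col-0. The double mutant arf7 arf19, mutated in a pair of auxin response factors, was grown with L344 and NB. The mutant gnom184, in the gene of the vesicle trafficking factor GNOM, was grown with L196, L339, L469, RMF27 and NB. The mutant lbd16-1, in the lateral root transcription factor LBD16, was grown with RMF8, RMF217, L76, L412, L384, L359, L343, L180 and NB. The mutant nph4-1, in ARF7, was grown with L344, L359, RCL115 and NB. Col-0 was grown with L180, L196, L264, L339, L343, L344, L359, L384, L412, L469, L76, RCL115, RMF217, RMF27, RMF331, RMF8 and NB. Each group held 6 libraries, 222 in all, and each library was a pool of several roots from an experiment that was repeated, so a library is not 1 plant. Each mutant is 1 line, and every Col-0 comparison shared the same 6 NB libraries. In such whole roots, fewer cells of a type and less RNA per cell cannot be told apart.

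The total count per library ran between 10255732 and 29735838 with a median of 18434824. The labels were checked against the mutated genes: ARF7 had 28.6 to 32.7 CPM (counts scaled to the effective library size) in arf7 arf19 and 47.7 to 61.5 CPM in nph4-1, against 58.7 to 113 CPM in Col-0, and LBD16 had 1.96 to 4.74 CPM in lbd16-1, against 3.6 to 10.8 CPM in Col-0. ARF19 had 7.45 to 11.7 CPM in arf7 arf19, against 26.1 to 68.2 CPM in Col-0. GNOM, at 70.9 to 118 CPM in gnom184 and 71.5 to 129 CPM in Col-0, did not separate the genotypes and so checks nothing. The 6 root markers PIN2, CASP1, WER, COBL9, EXPA7 and SCR were detected in every library. Leaf markers were also present, with a summed level of 653 to 1200 CPM in arf7 arf19 NB, against 310 to 516 CPM in Col-0 NB. Of the 222 libraries, 4 stood apart from their own group by a median correlation under 0.97: replicate 5 of arf7 arf19 with L344, replicate 6 of gnom184 with L469, replicate 4 of gnom184 with RMF27 and replicate 2 of gnom184 NB. Their leaf markers summed to 5140, 2860, 2930 and 1380 CPM in that order. Replicate 2 of gnom184 NB correlated more with the mean of nph4-1 with RCL115 (r = 0.9825) than with that of its own group (r = 0.9747), and its ARF7 level of 64.4 CPM was the lowest in gnom184. Several of the calls that these libraries change are given with and without them, but not all are named.

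In Col-0 ACS5 was called higher with 14 of 16 strains, ACS11 with 2 and ACS9 with 1, and ACS7 lower with 11. Of the tests of all genes in Col-0, 12.6% were called higher and 12.8% lower. The sequences before the annotated start of ACS5, ACS11, ACS7 and ACS9 are shown as examples. Each holds 250 bases upstream of the annotated start in RefSeq's TAIR10.1, read in the direction of the gene: chromosome 5, 26332813 to 26333062, minus strand for ACS5; chromosome 4, 4886712 to 4886961, plus strand for ACS11; chromosome 4, 13274950 to 13275199, plus strand for ACS7; and chromosome 3, 18436142 to 18436391, minus strand for ACS9. Capitals mark the auxin response elements TGTCTC and TGTCGG, the W-box cores TTGACC and TTGACT, to which WRKY factors bind, and the GCC box GCCGCC, each searched on both strands.
ACS5: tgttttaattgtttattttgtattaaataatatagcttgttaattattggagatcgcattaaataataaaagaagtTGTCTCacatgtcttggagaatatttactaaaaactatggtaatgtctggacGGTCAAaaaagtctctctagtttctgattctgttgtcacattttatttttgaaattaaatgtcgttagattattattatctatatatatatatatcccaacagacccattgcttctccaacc
ACS11: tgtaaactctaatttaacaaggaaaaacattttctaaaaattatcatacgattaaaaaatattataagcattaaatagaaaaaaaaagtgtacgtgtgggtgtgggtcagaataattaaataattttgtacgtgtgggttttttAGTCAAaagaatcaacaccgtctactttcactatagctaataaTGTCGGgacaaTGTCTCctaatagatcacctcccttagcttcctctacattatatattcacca
ACS7: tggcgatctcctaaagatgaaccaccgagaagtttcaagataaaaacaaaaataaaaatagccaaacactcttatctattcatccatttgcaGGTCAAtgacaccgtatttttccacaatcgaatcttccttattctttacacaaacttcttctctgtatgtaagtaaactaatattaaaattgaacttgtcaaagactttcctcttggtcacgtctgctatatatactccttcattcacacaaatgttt
ACS9: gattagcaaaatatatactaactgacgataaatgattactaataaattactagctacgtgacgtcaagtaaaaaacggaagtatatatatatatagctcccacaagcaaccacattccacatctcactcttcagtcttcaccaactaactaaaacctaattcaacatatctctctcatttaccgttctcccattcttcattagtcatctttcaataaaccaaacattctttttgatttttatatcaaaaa
The window of ACS5 held TGTCTC and, on the opposite strand, TTGACC. A word on the opposite strand reads GGTCAA for TTGACC and AGTCAA for TTGACT in the lines above. The window of ACS11 held both auxin elements a few bases apart and TTGACT on the opposite strand. That of ACS7 held TTGACC on the opposite strand, and that of ACS9 held none of the 5 words. Among the windows not shown, that of ACS6, called with no strain in Col-0, held TGTCTC and, on the opposite strand, TTGACT. That of ACS8 held TGTCTC and TTGACC, both on the opposite strand. The windows of ETO1, called higher with 13 strains in Col-0, and of ACS2, called higher with 2, held none of the words. Those of ACS1 and ACS4 held none either. Of 27443 promoters of this length, 10.9% held TGTCTC, 4.16% TGTCGG, 12.2% TTGACC, 19.1% TTGACT and 1.87% GCCGCC. A match is a description of the letters and no binding site, and the lack of a match says only that these letters are not in this window. The model of ACS9 has 1434 exon bases, of which 1413 are coding, against 1877 and 1413 for ACS5. Its annotated start thus lies close to the start codon. The window of ACS9 may therefore hold transcribed bases and may not be comparable with that of ACS5.

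Which family members did a root without bacteria contain? Per kb of coding length, ETO1 and ACS6 had the highest levels in Col-0 NB, with medians of 19.4 and 16.4 CPM per kb. ACS7 at 4.17, ACS2 at 3.73, ACS5 at 2.09 and ACS11 at 1.62 CPM per kb formed a middle class. ACS8 at 0.0743, ACS9 at 0.0667, ACS1 at 0.0165 and ACS4 at 0 CPM per kb were at or near the floor of detection.

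**Figure D1:**
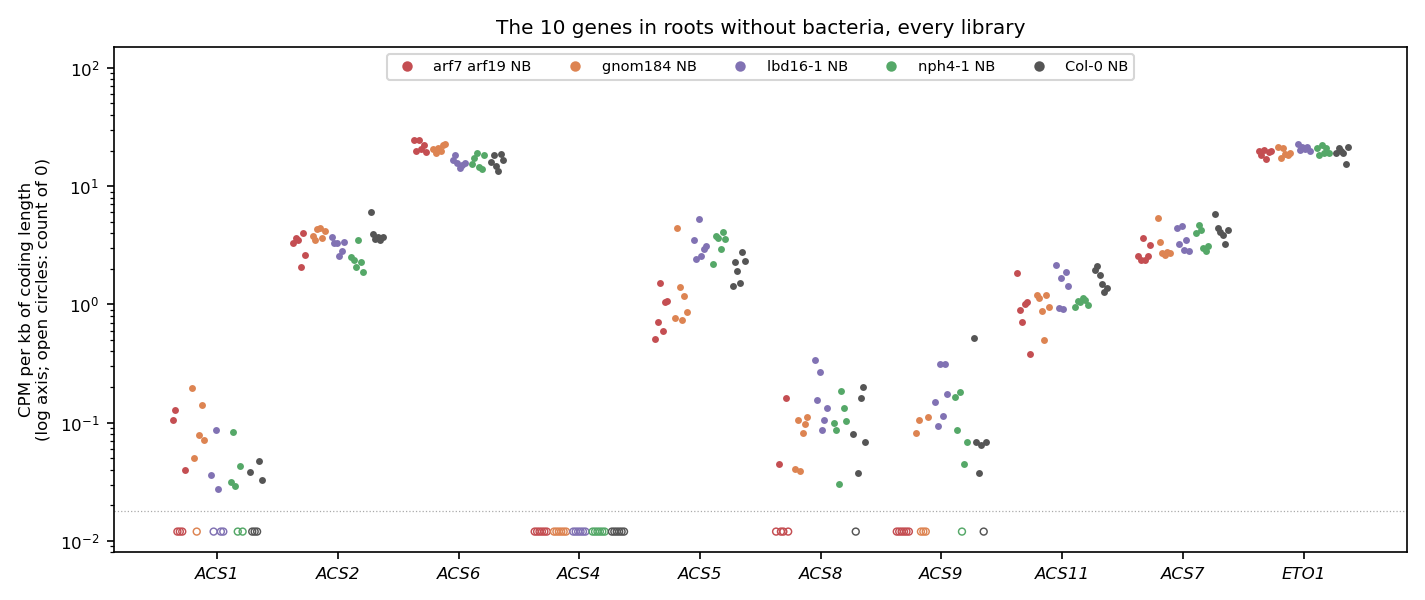
Level of each of the 10 genes in CPM per kb of coding length (log axis) in the 6 libraries of arf7 arf19, gnom184, lbd16-1, nph4-1 and Col-0 without bacteria, 1 point per library, with open circles for a count of 0. ETO1 and ACS6 lie on top in all 5 genotypes, ACS5 is lowest in arf7 arf19 and gnom184 with 1 gnom184 library far above the others, and ACS9 has a count of 0 in all 6 libraries of arf7 arf19.

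In Col-0, the response of the family to a strain was selective by gene: ACS5 and ETO1 rose with most strains, ACS7 fell with most strains, ACS9 was called with RMF27, and ACS6 with none. Over the 16 strains and 7 tested members, 32 of 112 tests were called higher and 11 lower at an adjusted p under 0.05 (edgeR's quasi-likelihood test, Benjamini-Hochberg adjustment within a comparison). This is 38.4% of the members' tests, against 25.4% of the tests of all genes (12.6% higher, 12.8% lower), a description with no test of the difference. With RMF27, a Bacillus, 6 of 7 members were called, against 44.3% of all genes. With L343 (35.4% of all genes called) and L264 (33.5%) 4 members were called. The 3 members called with L180 (33.8% of all genes), L339 (24.9%), L344 (31.1%), L384 (27.6%), L469 (35.3%), L76 (27.2%), RMF331 (27.3%) and RMF8 (33.8%) were the same in all 8 cases, ACS5, ACS7 and ETO1. With L196 (21.2%) and L359 (15.1%) 2 were called, ACS5 and ETO1, and with L412 (11.6%) only ACS5. With RCL115 (0.453%) and RMF217 (4.06%) none was called, though 2 members in each had an unadjusted p under 0.05, and DESeq2 called none either.

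**Figure D2:**
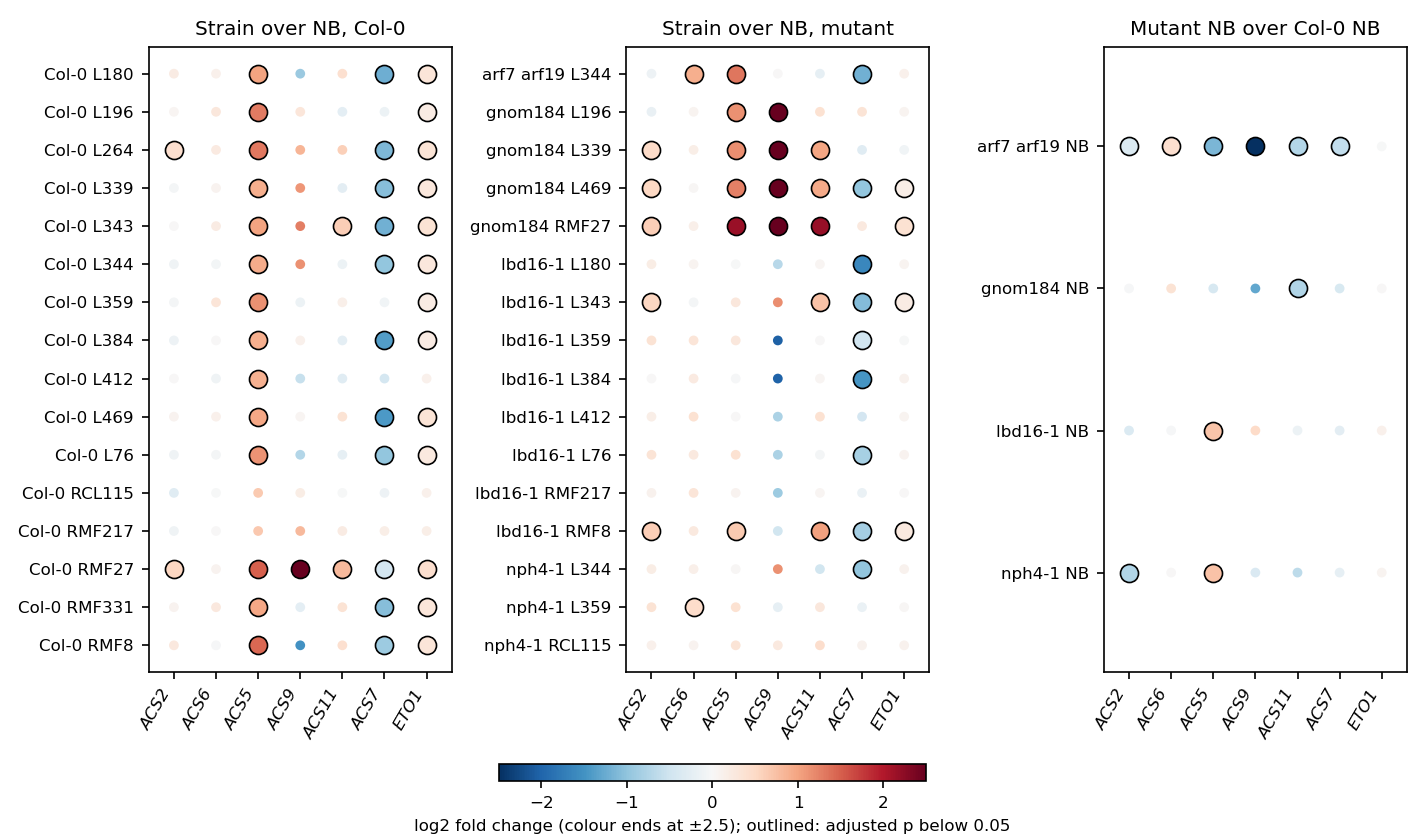
Log2 fold change (colour, ending at 2.5 in either direction) of the 7 tested genes for each strain over NB in Col-0 (left), each strain over NB in a mutant (middle) and each mutant over Col-0 without bacteria (right). Large outlined dots have an adjusted p under 0.05: ACS5 and ETO1 form red columns and ACS7 a blue column in Col-0, while ACS9 is outlined with RMF27 in Col-0 and with all 4 strains of gnom184.

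ACS5, the type 2 enzyme mutated in eto2, had the broadest rise. In Col-0 NB its 6 libraries lay at 2.02, 3.21, 2.69, 2.15, 3.92 and 3.30 CPM. With RMF27 they lay at 5.86 to 10.1 CPM with a median of 8.15, with RMF8 at 6.16 to 9.35 (median 8.05) and with L264 at 5.20 to 9.05 (median 7.36), so none of these libraries overlapped the NB range. The log2 fold changes were 1.50 (SE 0.225, adjusted p = 3.02e-09), 1.44 (SE 0.224, adjusted p = 3.84e-08) and 1.32 (SE 0.224, adjusted p = 2.93e-07). Over all 16 strains the log2 fold change of ACS5 was positive, between 0.65 and 1.50 with a median of 0.99, and 14 were called. All 6 strain libraries lay above all 6 NB libraries with 12 of the 16 strains, against 4.73% of the tests of all genes that were so separated upwards. The strains that were not called were RCL115, at 3.52 to 5.91 CPM (median 4.58), and RMF217, at 2.07 to 6.58 CPM (median 4.66). Since the 6 NB libraries are common to all 16 comparisons, these are not 16 independent rises, but each of the 14 calls was kept whichever library was left out.

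ACS7, the type 3 enzyme, moved the other way. Its Col-0 NB libraries lay at 7.81, 5.93, 5.54, 5.17, 4.34 and 5.68 CPM. With L469, a Methylobacterium, they lay at 1.50 to 2.45 CPM (median 2.15), and with L384, a Pararhizobium, at 1.71 to 2.98 CPM (median 2.02). ACS7 fell by 1.44 on the log2 scale with L469 (SE 0.18, adjusted p = 7.3e-12) and by 1.40 with L384 (SE 0.176, adjusted p = 3.27e-11), and all libraries with these strains lay under all NB libraries. In all, 11 of 16 strains gave a call and 10 a full separation downwards, against 3.93% of the tests of all genes. With L196 (median 5.06 CPM), L359 (5.59), L412 (4.31), RCL115 (5.07) and RMF217 (6.00) ACS7 was not called. RMF27, with which ACS2, ACS5, ACS9, ACS11 and ETO1 had their highest fold changes in Col-0, gave a weaker fall of ACS7, to 2.89 to 5.48 CPM (median 4.16), with a log2 fold change of -0.46 (adjusted p = 0.0196), and this call was lost without replicate 1 of NB or replicate 4 of RMF27 (adjusted p up to 0.0857). ACS5 rose without a call of ACS7 with L196, L359 and L412, so the calls of both genes did not always go together.

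ETO1, whose product marks type 2 enzymes for degradation, rose little but with most strains. It had 44.5 to 61.3 CPM (median 55.9) in Col-0 NB. With RMF27 it had 63.0 to 86.2 CPM (median 72.8), a log2 fold change of 0.42 (SE 0.067, adjusted p = 2.49e-08), and with L343 63.1 to 75.9 CPM (median 72.1), a log2 fold change of 0.36 (SE 0.067, adjusted p = 4.05e-06). Neither range overlapped that of NB, a separation upwards that 10.8% of all genes had with RMF27 and 6.77% with L343. The 16 log2 fold changes ran between 0.12 and 0.42 with a median of 0.29, 13 were called and 6 were fully separated. Of the tests of all genes, 12.6% were called higher and 4.73% were so separated upwards. L412, RCL115 and RMF217 were not called. The calls with L196, L359 and L384 were lost in 5, 4 and 1 of the 12 fits that left out 1 library, each of them without replicate 5 of NB, which had the lowest ETO1 level (44.5 CPM). The root markers also moved with the strains, and 40 of their 96 tests in Col-0 were called higher and none lower. These calls were uneven: EXPA7 and COBL9 had 13 each, SCR 9, CASP1 4, PIN2 1 and WER 0. With RMF27 the markers had a summed level of 543 to 601 CPM, against 309 to 381 CPM in NB. EXPA7 and COBL9 rose most there (log2 fold changes 1.88 and 1.47), while CASP1 (0.22) and WER (0.17) were not called. The part of the root markers in the rises of ACS5 and ETO1 was not tested.

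**Figure D3:**
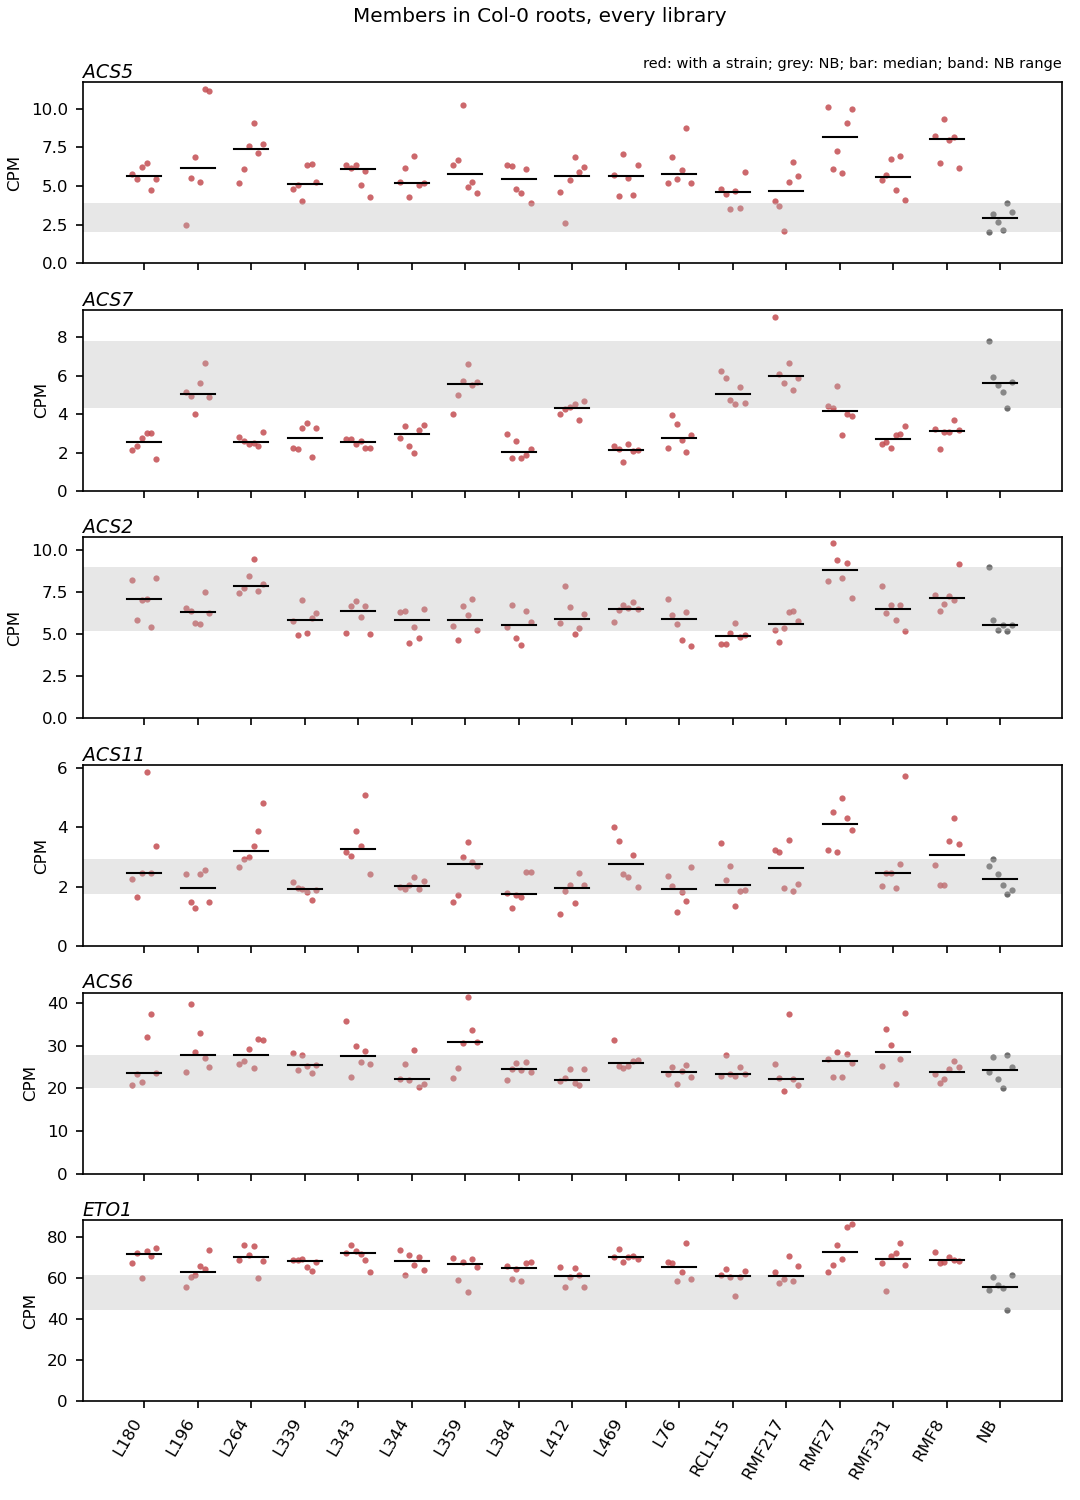
CPM (linear axis) of 6 tested genes in every Col-0 library, in red with a strain and in grey without bacteria, with bars at the group medians and a band over the range of the 6 NB libraries. ACS5 lies above the band with 12 of 16 strains, ACS7 lies below it with 10, ETO1 lies above it with 6, and ACS6 overlaps it with all 16.

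ACS9, the gene of the eto3 mutation and a type 2 enzyme, was nearly silent with most treatments, and in Col-0 RMF27 was the 1 strain of 16 with a call. Without replicate 1 of NB, which held most of the NB counts, 5 strains were called: RMF27 (log2 fold change 6.33), L343 (2.58), L344 (2.44), L339 (2.41) and L264 (2.15), with adjusted p up to 0.0356. Its libraries with RMF27 lay at 7.06, 5.84, 7.52, 6.89, 3.75 and 5.84 CPM, which were 626 counts in sum. In NB they lay at 0.730, 0.0973, 0.0528, 0.0916, 0 and 0.0970 CPM, 19 counts in sum, of which 13 were in replicate 1. The ranges were far apart, and the log2 fold change was 5.02 (SE 0.531, adjusted p = 5.95e-16). With all NB libraries, other strains were not called: L343 had 0 to 0.758 CPM (median 0.541) and a log2 fold change of 1.28 (adjusted p = 0.111), L344 had 0.0968 to 0.824 CPM (median 0.371), and RMF8, with which ACS5 rose, had 0 to 0.111 CPM (median 0.0698). ACS9 belongs to a list of ethylene genes that the study chose on these same libraries, so its rise there is not independent evidence of the list. In the order of the 37 groups by median, gnom184 with RMF27 (9.70 CPM) and Col-0 with RMF27 (6.37 CPM) stood on top and gnom184 with L339 (1.05 CPM) came next, and the step under Col-0 with RMF27 was the only one of 36 between neighbours at which the libraries did not overlap.

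**Figure D4:**
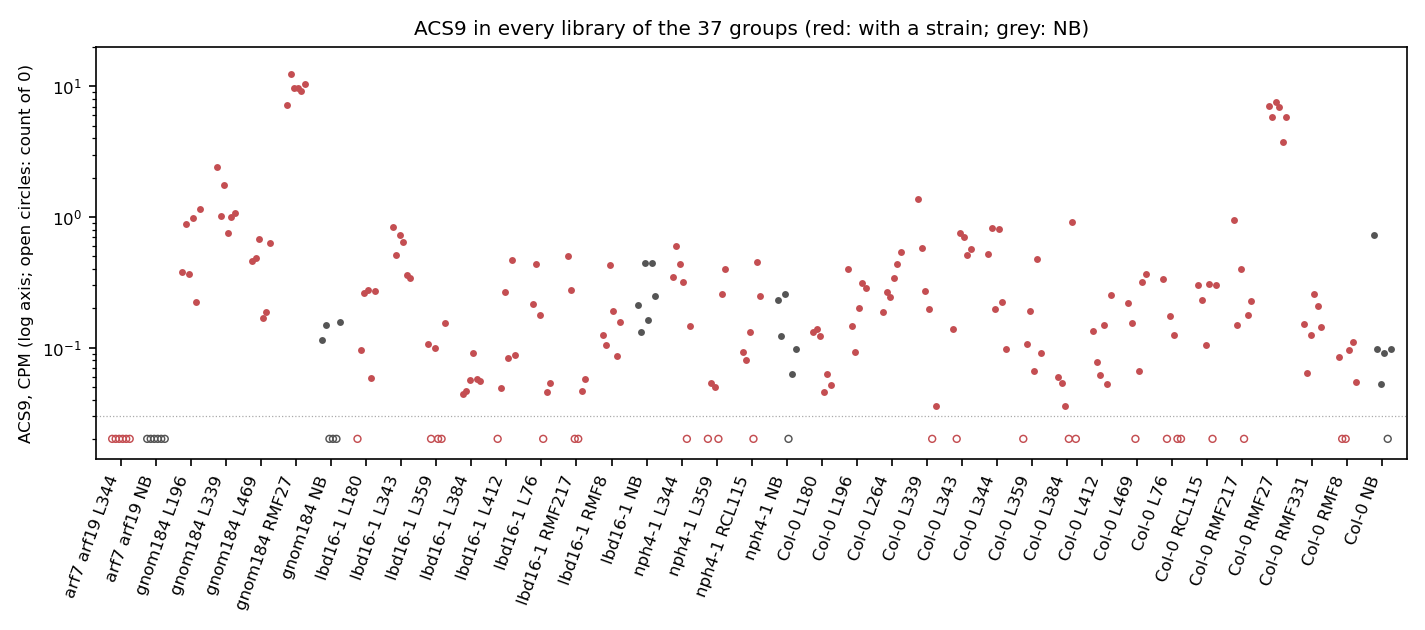
CPM of ACS9 (log axis) in every library of the 37 groups, in red with a strain and in grey without bacteria, with open circles for a count of 0. The libraries with RMF27 lie at 7.22 to 12.3 CPM in gnom184 and at 3.75 to 7.52 CPM in Col-0, the other strains of gnom184 lie between these and NB, and all 12 arf7 arf19 libraries have a count of 0.

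ACS2, a type 1 enzyme, rose in Col-0 with RMF27 and L264. It had 7.14 to 10.5 CPM (median 8.81) with RMF27 and 7.45 to 9.51 CPM (median 7.88) with L264, against 5.18 to 8.99 CPM (median 5.56) in NB, where 1 library (replicate 1) was far above the other 5. Both ranges therefore overlapped that of NB. The log2 fold changes were 0.54 with RMF27 (SE 0.133, adjusted p = 0.000342) and 0.42 with L264 (SE 0.132, adjusted p = 0.00764). ACS11 rose with RMF27, at 3.15 to 4.97 CPM (median 4.10) against 1.75 to 2.92 CPM (median 2.25) in NB, with no overlap (10.8% of all genes were so separated upwards) and a log2 fold change of 0.81 (SE 0.255, adjusted p = 0.00527). Its rise with L343, at 2.44 to 5.09 CPM (median 3.28), had a log2 fold change of 0.62 and an adjusted p of 0.0479, which passed in 3 of the 12 fits that left out 1 library and was not called by DESeq2. ACS6, a type 1 enzyme known for its induction by stress and wounding, was the ACS with most transcript and had no call: its medians with the 16 strains ran between 22.0 CPM (L412) and 30.8 CPM (L359), against 24.4 CPM in NB, and its log2 fold changes between -0.11 and 0.33. Of these 16 tests, 1 had an unadjusted p under 0.05, and DESeq2 called none.

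The 3 untested genes were rare. ACS4 had 17 counts in the whole series and a count of 0 in 210 of 222 libraries. ACS1, whose product is inactive as a homodimer, had 208 counts, and 37.1% of its words of 31 bases also occur in AT5G28360, so its reads may be split between both genes. ACS8, a type 2 enzyme, had 596 counts, of which 44 were in Col-0 with RMF27 (0.104 to 0.774 CPM, median 0.380), against 14 in Col-0 NB (0 to 0.280 CPM, median 0.105). The libraries overlapped. In the fit without a filter on low counts, the log2 fold change of ACS8 with RMF27 was 1.63 with an adjusted p of 0.0152, and that in lbd16-1 with L384 was -1.68 with an adjusted p of 0.0474, while ACS1 and ACS4 had no call. At these counts only a large change of ACS1 or ACS4 could have been called.

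Without bacteria, the mutants differed from Col-0 mostly in arf7 arf19. Over the 4 mutants, 3 of 28 tests were called higher and 7 lower, which is 35.7%, against 24.6% of the tests of all genes (11% higher, 13.6% lower). In arf7 arf19, 6 of 7 members were called, against 46.5% of all genes. There were 2 in nph4-1 (13.1% of all genes called), 1 in gnom184 (32%) and 1 in lbd16-1 (6.61%). ETO1 was called in none, with log2 fold changes between -0.01 and 0.13, no unadjusted p under 0.05 and no call by DESeq2.

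ACS5 was called in 3 of the 4 mutants without bacteria. In arf7 arf19 NB it lay at 0.720 to 2.13 CPM (median 1.25), against 2.02 to 3.92 CPM (median 2.95) in Col-0 NB, and the log2 fold change was -1.15 (SE 0.27, adjusted p = 0.000144). In nph4-1 NB it lay at 3.12 to 5.73 CPM (median 5.09) and in lbd16-1 NB at 3.45 to 7.50 CPM (median 4.30), with log2 fold changes of 0.74 (SE 0.23, adjusted p = 0.0189) and 0.71 (SE 0.231, adjusted p = 0.0432). Both groups overlapped Col-0, and these calls were lost in 1 and 3 of the 6 fits without 1 NB replicate. In gnom184 NB, 5 libraries lay at 1.04 to 1.98 CPM and replicate 2, which stood apart, at 6.22 CPM. With it the log2 fold change was -0.43 (adjusted p = 0.198), and without it -1.03 (adjusted p = 0.000802). That library was left out after its values were seen, and it also had the highest root marker sum of the group. The root marker sums were 155 to 214 CPM in arf7 arf19 NB and 176 to 313 CPM in gnom184 NB, against 309 to 381 CPM in Col-0 NB, and their part in the level of ACS5 was not tested.

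ACS9 was not detected in arf7 arf19. All 12 of its libraries, with 223389058 reads in sum, had a count of 0, as had 11 tested genes in all. The 6 arf7 arf19 NB libraries allow at most 0.0285 CPM by the 3 counts that a count of 0 does not exclude. The observed level of Col-0 NB, from 19 counts in sum, was 6.43-fold this limit. With L344 the limit was 0.0280 CPM in arf7 arf19, and the observed level of Col-0, from 46 counts, was 14.1-fold this limit. These ratios allow for no error in the Col-0 counts and so are not lower bounds of the difference. The call without bacteria (adjusted p = 0.00291) was lost without replicate 1 of NB, which held most of the Col-0 counts (adjusted p = 0.102). The other 5 Col-0 NB libraries held 6 counts, and their observed level was 2.45-fold the limit of arf7 arf19 NB.

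The other genes in arf7 arf19 NB moved by less, beside markers that moved too: all 6 root markers were called lower, with log2 fold changes between -2.32 and -0.49, and 5 of 6 leaf markers higher, between 0.83 and 1.44. Their part in these values was not tested. ACS7 lay at 3.19 to 4.90 CPM (median 3.44), against 4.34 to 7.81 CPM (median 5.61) in Col-0, with a log2 fold change of -0.62 (SE 0.17, adjusted p = 0.00117), a call kept in all fits without 1 replicate. ACS11 lay at 0.524 to 2.57 CPM (median 1.32), against 1.75 to 2.92 CPM (median 2.25), with a log2 fold change of -0.72 (SE 0.279, adjusted p = 0.0246). ACS2 had a log2 fold change of -0.35 (adjusted p = 0.0273) and ACS6 one of 0.42 (adjusted p = 0.0205), with ACS6 at 29.0 to 36.5 CPM and all above the 20.2 to 27.8 CPM of Col-0, a separation upwards that 9.03% of all genes had in this mutant. ACS6 in gnom184 NB, at 28.4 to 33.9 CPM, was also fully above Col-0 (4.05% of all genes) but was not called (log2 fold change 0.365, adjusted p = 0.0672). The calls of ACS11, ACS2 and ACS6 were lost in 3, 3 and 1 of the 6 fits without 1 replicate. Outside arf7 arf19, ACS11 was lower in gnom184, at 0.696 to 1.67 CPM with no overlap (log2 fold change -0.76, adjusted p = 0.0288), where 3.48% of all genes were so separated downwards, a call lost in 4 of 6 fits without 1 replicate, and ACS2 was lower in nph4-1, at 2.81 to 5.24 CPM (log2 fold change -0.75, SE 0.141, adjusted p = 2.66e-05).

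The mutants' response to the strains was read against their own NB group. Over 16 combinations of a mutant and a strain, 26 of 112 tests were called higher and 9 lower, which is 31.2%, against 23.7% of the tests of all genes (12.9% higher, 10.8% lower). In gnom184, 6 of 7 members were called with L469 (28.4% of all genes), 5 with RMF27 (61.5%), 4 with L339 (33.9%) and 2 with L196 (36%). In arf7 arf19 with L344, 3 were called (34.4%). In lbd16-1, 5 were called with RMF8 (27.2%), 4 with L343 (24.5%), 1 each with L180 (22%), L359 (16.3%), L384 (21.2%) and L76 (20.7%), and none with L412 (12.9%) and RMF217 (4.85%), where 2 and 1 members had an unadjusted p under 0.05. In nph4-1, 1 was called with L344 (22.9%), 1 with L359 (13.3%) and none with RCL115 (0.00924%), where no unadjusted p was under 0.05. DESeq2 also called none in these 3 combinations.

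In gnom184 the type 2 genes ACS5 and ACS9 rose with all 4 strains and ACS11 with 3. ACS9 had 7.22 to 12.3 CPM (median 9.70) with RMF27, 0.756 to 2.42 (median 1.05) with L339, 0.225 to 1.15 (median 0.629) with L196 and 0.169 to 0.672 (median 0.471) with L469, against 0 to 0.158 CPM (median 0.0575) in NB. None of these ranges overlapped that of NB, while of all genes 7.01% with L469, 6.01% with L196, 7.65% with L339 and 17.7% with RMF27 were so separated upwards. The NB group held 7 counts in sum, and the log2 fold changes were 6.99, 4.16, 3.13 and 2.51 with adjusted p between 3.5e-22 and 0.00803. ACS5 was called with all 4 as well, at 7.19 to 12.2 CPM (median 8.86) with RMF27 and a log2 fold change of 2.17 (SE 0.233, adjusted p = 3.39e-16). Without replicate 2 of NB this was 2.76, and the values with L196, L339 and L469 were 1.74, 1.75 and 1.87 in place of 1.14, 1.15 and 1.27. ACS11 rose with RMF27 to 4.14 to 8.87 CPM (median 5.73), against 0.696 to 1.67 CPM (median 1.43) in NB, with a log2 fold change of 2.18 (SE 0.266, adjusted p = 2.47e-13), and it was also called with L339 and L469. ACS2 was called with L339, L469 and RMF27, at log2 fold changes between 0.49 and 0.61. Without the 4 libraries that stood apart, the log2 fold changes of ACS9 were 2.63 with L469, 3.39 with L196, 4.41 with L339 and 7.24 with RMF27, those of ACS11 were 2.19 with RMF27, 1.03 with L339 and 1.07 with L469, and those of ACS2 ran between 0.45 and 0.59, all still called. ETO1 rose with RMF27 (0.38, and 0.32 without those libraries) and was called with L469 at 0.17 (adjusted p = 0.046), a call lost without them (0.15, adjusted p = 0.129). The root markers moved with these rises: their sum was 278 to 297 CPM with L469, 324 to 358 CPM with L196, 262 to 378 CPM with L339 and 499 to 668 CPM with RMF27, against 176 to 313 CPM in NB. With RMF27 all 6 root markers were called higher, with log2 fold changes between 0.40 and 2.91, and over all mutants 38 of 96 root marker tests were higher and none lower. Their part in the rises of the ACS genes was not tested. ACS7 fell with L469 only, to 1.86 to 2.58 CPM (median 2.21), against 3.54 to 7.25 CPM (median 3.68) in NB.

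In arf7 arf19 with L344, a Bosea, ACS5 rose and ACS7 fell, as in Col-0. ACS5 had 1.80 to 5.08 CPM (median 2.94) with L344, against 0.720 to 2.13 CPM (median 1.25) in NB, a log2 fold change of 1.34 (SE 0.264, adjusted p = 8.81e-06). ACS7 had 1.11 to 3.22 CPM (median 1.25), against 3.19 to 4.90 CPM (median 3.44), a log2 fold change of -1.21 (SE 0.189, adjusted p = 2.56e-08). All 6 root markers were called higher here, with log2 fold changes between 0.32 and 1.34 and a sum of 232 to 284 CPM with L344, against 155 to 214 CPM in NB, and their part in these values was not tested. ACS6 was called too, but 1 library decides it: replicate 5, which stood apart and had the highest leaf marker sum, had 169.4 CPM, and the other 5 had 32.6 to 46.9 CPM, against 29.0 to 36.5 CPM in NB. With that library the log2 fold change was 0.90 (adjusted p = 3.03e-07), and without it 0.27 (adjusted p = 0.0992). The same library was highest for ACS11 and ACS7, and without it ACS11 was called lower, with a log2 fold change of -0.86 and an adjusted p of 0.0266 in place of -0.22 and 0.62.

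In lbd16-1 and nph4-1, where the calls of ACS5 without bacteria were higher but lost in some fits, few strains gave a call of ACS5 over NB. Among the differences to Col-0 in these mutants, only that with L180 in lbd16-1 was called for ACS5. Of 8 strains in lbd16-1 only RMF8, a Chryseobacterium, was called, at 5.80 to 9.52 CPM (median 7.09) against 3.45 to 7.50 CPM (median 4.30) in NB, with a log2 fold change of 0.66 (SE 0.212, adjusted p = 0.0113). Its range overlapped that of NB, and the call was lost without replicate 1 of RMF8 (adjusted p = 0.0553). ACS7 fell in lbd16-1 with 6 of 8 strains and in nph4-1 with L344. The largest fall of the gene was in lbd16-1 with L180, to 0.897 to 2.06 CPM (median 1.50), against 3.80 to 6.18 CPM (median 4.53) in NB, with a log2 fold change of -1.63 (SE 0.187, adjusted p = 2.75e-13). RMF8 also raised ACS2, with a log2 fold change of 0.62 (SE 0.135, adjusted p = 0.000105), ACS11, at 1.02 (SE 0.254, adjusted p = 0.00077), and ETO1, at 0.25 (SE 0.067, adjusted p = 0.00182). With L343 the same 3 genes rose by 0.53, 0.73 and 0.21. In nph4-1 with L359, ACS6 was called at a log2 fold change of 0.465 (adjusted p = 0.0315), a call that 5 of 12 fits without 1 library lost.

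Whether a mutant responded otherwise than Col-0 to the same strain was tested by the difference of both responses. Of 112 such tests, 7 were called higher in the mutant and 2 lower, which is 8.04%, against 5.4% of the tests of all genes (2.94% higher, 2.46% lower). gnom184 with L339, a Sphingomonas, had 5 of the 9 calls, against 16.6% of all genes called. There ACS11 had a difference of 1.25 (SE 0.385, adjusted p = 0.016), ACS9 of 3.05 (SE 1.026, adjusted p = 0.0288), ACS7 of 0.76 (SE 0.245, adjusted p = 0.022), ACS2 of 0.535 (SE 0.19, adjusted p = 0.0372) and ETO1 of -0.37 (SE 0.096, adjusted p = 0.00436), all on the log2 scale. With this strain ACS11 had 1.25 to 4.36 CPM (median 2.40) in gnom184 and 1.56 to 2.14 CPM (median 1.91) in Col-0, so the levels with the strain overlapped, while NB was lower in gnom184. ETO1 had 41.7 to 59.8 CPM (median 52.9) in gnom184 and 63.6 to 69.3 CPM (median 68.4) in Col-0 with L339, and these did not overlap. The share of all genes so separated between these groups was not computed. gnom184 with RMF27 had 2 calls (22.9% of all genes), ACS11 with a difference of 1.37 (SE 0.369, adjusted p = 0.00278) and ACS7 with 0.71 (SE 0.239, adjusted p = 0.0202). The root markers differed as well, with 4 of 6 called higher in the difference of gnom184 with RMF27, 1 of 6 in that with L339 and 9 of 96 over all differences, none lower, and their part was not tested. Without replicate 2 of gnom184 NB, the difference of ACS5 with RMF27 was 1.26 (adjusted p = 0.00149) in place of 0.66 (adjusted p = 0.132), and that of ACS2 with L339 had an adjusted p of 0.053.

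The remaining calls were those of ACS6 in arf7 arf19 with L344 (15% of all genes), with a difference of 0.97 that was 0.33 (adjusted p = 0.234) without replicate 5 of the strain, and of ACS5 in lbd16-1 with L180 (3.27% of all genes), with a difference of -1.02 (SE 0.315, adjusted p = 0.0475). For ACS5 with L180, the libraries lay at 3.64 to 7.14 CPM (median 4.21) in lbd16-1 and at 4.76 to 6.49 CPM (median 5.61) in Col-0. ACS5 with the same strain therefore reached ranges that overlap in both genotypes. Without bacteria, as given above, its median was higher in lbd16-1, with ranges that overlap. No member was called in the differences of gnom184 with L196 (6.76% of all genes) and L469 (1.8%), of lbd16-1 with RMF8 (1.4%), RMF217 (4.21%), L76 (1.13%), L412 (0.411%), L384 (1.39%), L359 (3.88%) and L343 (0.3%), and of nph4-1 with L344 (4.56%), L359 (2.79%) and RCL115 (0.00462%). In these, between 0 and 3 of 7 members had an unadjusted p under 0.05, and DESeq2 called none. Of the 9 calls, only those of ETO1 with L339 and of ACS11 with RMF27 in gnom184 held in all 12 fits that left out 1 replicate number of NB or of the strain in both genotypes.

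**Figure D5:**
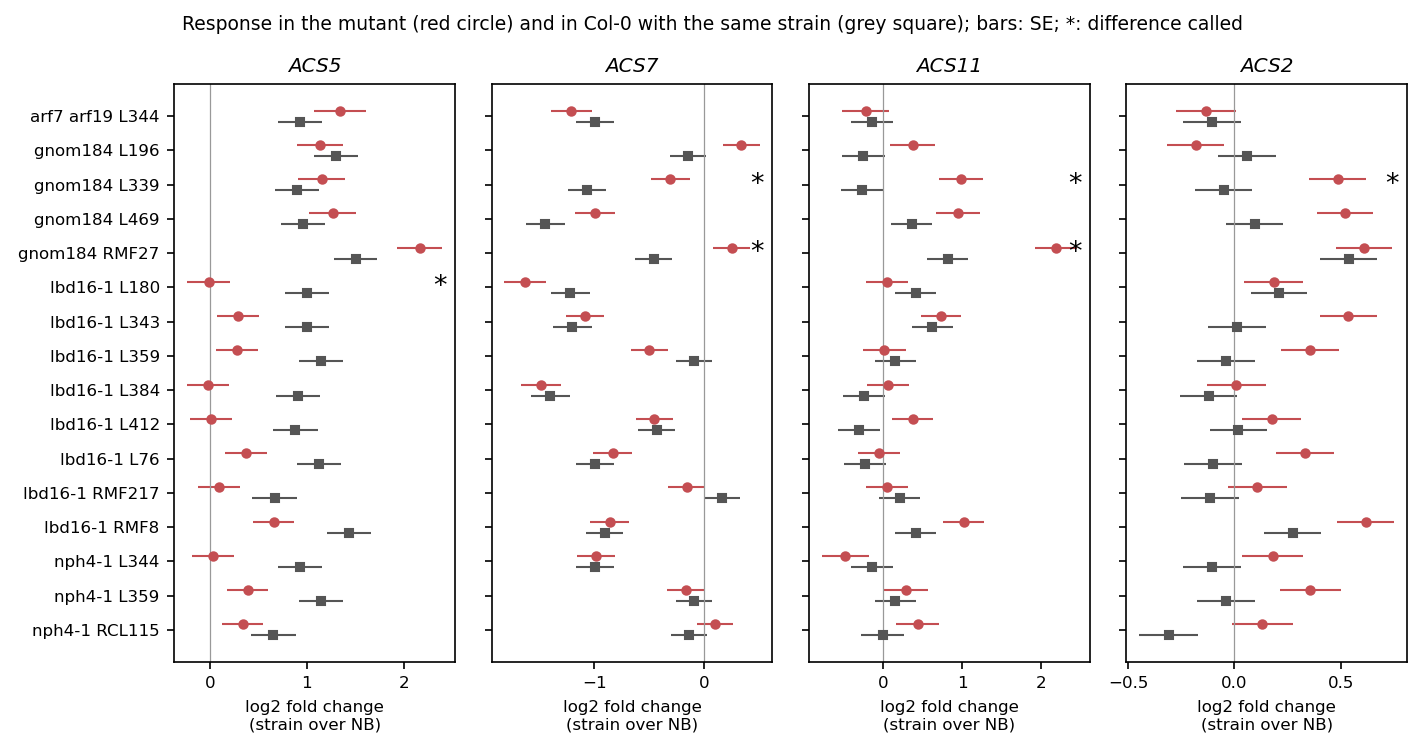
Log2 fold change of a strain over NB (x axis) for ACS5, ACS7, ACS11 and ACS2 in each mutant (red circles) and in Col-0 with the same strain (grey squares), with bars of 1 SE and a star where the difference was called. ACS11 lies to the right of Col-0 in gnom184 with L339 and RMF27, and ACS5 lies near 0 in lbd16-1 with L180 while Col-0 lies at 1.00.

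Across the 37 groups, the levels of each gene formed a continuous order in which neighbours overlapped, with the single step of ACS9 as the exception. RMF27 stood at the top for most members: gnom184 and Col-0 with RMF27 were the highest groups for ACS5 (medians 8.86 and 8.15 CPM), ACS9 and ACS11 (5.73 and 4.10 CPM), and both were also among the highest 3 for ACS2 (8.64 and 8.81 CPM) and ETO1 (72.5 and 72.8 CPM). At the low end, arf7 arf19 NB was lowest for ACS5 (1.25 CPM), arf7 arf19 with L344 for ACS7 (1.25 CPM) and ACS11 (0.899 CPM), nph4-1 NB for ACS2 (3.47 CPM) and gnom184 with L339 for ETO1 (52.9 CPM). Between the group means of the members, the highest correlation was that of ACS11 and ACS2 (r = 0.758) and the lowest that of ACS7 and ETO1 (r = -0.363), over 37 groups that share genotypes and strains. The 3 genes most like each tested member were taken by Pearson's r over the same means. For ACS5 they were RAB7A (r = 0.908), AT2G31540 (0.905) and AT1G14220 (0.899), and RAB7A is a small GTPase of endosome traffic. For ACS9 they were AOX1B (0.924), an alternative oxidase, LGO (0.91), an inhibitor of cyclin-dependent kinases, and AT3G51410 (0.906). For ACS11 they were DFL1 (0.867), an auxin-inducible enzyme that conjugates auxin, AT5G46870 (0.862) and AT3G44610 (0.861). For ACS2 they were GolS3 (0.853), a galactinol synthase, and the auxin response repressors IAA10 (0.842) and IAA11 (0.829). For ACS6 they were RDUF2 (0.807), a ubiquitin ligase, AT2G01818 (0.781) and ERF2 (0.755), an ethylene response factor. For ACS7 they were AT2G47710 (0.866), AT2G40250 (0.855) and XTR6 (0.853), a xyloglucan-modifying enzyme. For ETO1 they were AT3G12590 (0.942), ATMPK8 (0.936), a MAP kinase, and KINESIN-13A (0.934). These are descriptions of likeness over groups, with no test.

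The steps around ACC synthase were followed in lists of the pathway. Of the 5 ACC oxidases, which make ethylene from ACC, ACO3 was called higher with 12 of 16 strains in Col-0 (log2 fold change up to 1.74) and ACO4 lower with 12 (down to -0.80), and all 5 together had 19 calls higher and 13 lower in 80 tests, which is 40% against the 25.4% of all genes. ACO5 was called higher in 12 of the 16 mutant comparisons with a strain, where 12.9% of the tests of all genes were higher, and lower in all 4 mutants without bacteria, where 13.6% were lower. Of the relatives of ETO1, EOL2 rose with 11 of 16 strains in Col-0 (median log2 fold change 0.46) and EOL1 with none, and neither fell. The 4 S-adenosylmethionine synthetases, which make the substrate, had 7 calls higher and 2 lower in 64 tests (14.1%). The 9 genes of the methionine salvage cycle, which returns the sulfur group of the substrate, had 5 calls higher and 39 lower in 144 tests (30.6%), with ARD4 and DEP1 each lower with 13 strains. Among 8 other regulators of the ACC synthase proteins, CPK16, a calcium-dependent kinase that phosphorylates ACS7, rose with 13 strains and accounted for most of the 15 calls higher and 1 lower in 128 tests (12.5%). The aminotransferases ACS10 and ACS12, which are related in sequence but do not make ACC, had 2 calls higher and 3 lower in 32 tests (15.6%). Of 5 signalling genes that ethylene is known to induce, EBF2 and ETR2 rose with 14 strains each, ERS1 with 9, ERS2 with 7 and EBF1 with none. The list had 44 calls higher and none lower in 80 tests (55%). In the mutants with a strain it had 31 higher and 6 lower in 80 tests, against 12.9% and 10.8% of the tests of all genes. Of these 6, EBF1 had 4. By type, ACS5, ACS9 and ACS11 (type 2) had 17 calls higher and none lower in 48 tests in Col-0. Of these 17, ACS5 alone had 14, ACS11 2 and ACS9 1, so the count is mostly that of 1 gene. ACS2 and ACS6 (type 1) had 2 higher and none lower in 32, and ACS7 (type 3) had none higher and 11 lower in 16. Of the tests of all genes in Col-0, 12.6% were higher and 12.8% lower.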

How the data were processed

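Gene counts of 222 root libraries were used as deposited: per the labels, the authors used fastp 0.20.1 for trimming and Salmon 1.6.0 for quantification on Arabidopsis transcripts, which were summed to genes, and the deposited values are whole-number counts. No step that marks strand was described. Groups were read from the labels. Low genes were removed with filterByExpr, which left 21635 of 32311 genes, and edgeR 4.0.16 (R 4.3.3, TMM normalization) fitted 1 quasi-likelihood model with all 37 groups. The 52 contrasts were tested with edgeR's quasi-likelihood test and Benjamini-Hochberg adjustment over all genes within a contrast, at 0.05. CPM were computed from the deposited counts over the effective library size (total count times TMM factor). All 10 members were described, with full test values for the largest called rise and fall per member in Col-0 and in mutants and for each called difference, pathway genes by at most the 2 with most calls in a family of comparisons, markers as whole lists, and the 3 genes most correlated with each tested member. Alternatives were DESeq2 1.42.0, RLE size factors, other filters and prior counts, a fold limit, each range of library numbers, only the groups of a contrast, and leaving out each replicate or the libraries that stood apart, the last chosen after seeing the data. The procedure was tested on simulated data. Libraries are pools and may share a culture round, so p-values measure only the spread between them. Gene positions, coding lengths and promoters came from RefSeq's TAIR10.1. Members, lists and tests were chosen with earlier results of these data known.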

Additional observations from a re-analysis of the deposited data

Results flagged for a closer look

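A library lay far from the other 5 of its group in 28 of 257 combinations of a member and a group by Dixon's test, 24 on the high side and 4 on the low side, in 24 libraries. For normally distributed values, chance flags about 1 in 20 groups at the limit used. CPM need not be so distributed, least of all those of ACS9 from few counts, so this share may not hold here. For ACS5 these were library 2 of gnom184 NB (6.218 CPM), library 3 of Col-0 with L359 (10.22), library 5 of lbd16-1 with L180 (7.135) and library 3 of lbd16-1 NB (7.499). For ACS6 they were library 5 of arf7 arf19 with L344 (169.4 CPM), library 5 of gnom184 with L196 (50.37), library 1 of lbd16-1 with L76 (35.26), library 4 of lbd16-1 with RMF217 (43.14), library 1 of Col-0 with L469 (31.32) and library 4 of Col-0 with RMF217 (37.42). Library 5 of arf7 arf19 with L344 also stood out for ACS11 (3.33 CPM) and ACS7 (3.215 CPM), and it was one of the 4 libraries that stood apart over all genes, as was library 2 of gnom184 NB.

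For ACS11, library 1 of lbd16-1 with L412 (4.298 CPM) and library 6 of Col-0 with RMF331 (5.707) lay apart. For ACS7, library 1 of gnom184 NB (7.247 CPM) and library 1 of Col-0 with RMF217 (9.061) did. For ACS2 they were library 3 of lbd16-1 with L343 (9.078 CPM), library 6 of lbd16-1 with L384 (3.563), library 1 of nph4-1 with L359 (3.383), library 4 of nph4-1 NB (5.241), library 1 of Col-0 with L469 (5.738), library 6 of Col-0 with RMF8 (9.159) and library 1 of Col-0 NB (8.988). For ACS9 they were library 4 of lbd16-1 with L384 (0.09009 CPM), library 3 of lbd16-1 with RMF8 (0.4317), library 5 of Col-0 with L384 (0.9093) and library 1 of Col-0 NB (0.7303). For ETO1 it was library 4 of Col-0 with RCL115 (51.14 CPM).

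The response to a strain differed between a mutant and Col-0 by the test of the difference (edgeR's quasi-likelihood test) in 9 cases, given on the log2 scale. In gnom184 with L339 these were ACS11 (1.251), ACS9 (3.048), ACS7 (0.759), ACS2 (0.535) and ETO1 (-0.366), and in gnom184 with RMF27 ACS11 (1.368) and ACS7 (0.708). ACS6 in arf7 arf19 with L344 had 0.966 and ACS5 in lbd16-1 with L180 had -1.018.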

How the results depend on the processing

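The alternatives reversed none of the 32 differences examined singly: of 673 values, 562 kept the call and 111 kept the direction but lost it. DESeq2, RLE size factors, a filter of at least 1 CPM in 6 libraries and the library number range as a covariate kept all 32. A prior count of 1 kept all 32 too, but it alters only the fold changes and not the p-values, so this was fixed in advance. The fold limit reused the fold changes of the main fit and so could reverse no value. DESeq2 did not call ACS11 in Col-0 with L343, which is not among the 32. It called ACS9 lower in lbd16-1 with L384, which edgeR did not. In edgeR's fit without a filter, ACS9 had log2 fold changes of -2.02 there (adjusted p = 0.0877) and -2.05 in lbd16-1 with L359 (adjusted p = 0.12). The counts of calls depended on a fold limit and on the number of libraries. With an absolute log2 fold change of at least 1, Col-0 had 9 calls higher and 7 lower in place of 32 and 11, the mutants with a strain 11 and 4 in place of 26 and 9, the differences between mutant and Col-0 3 and 1 in place of 7 and 2, and the mutants without bacteria 0 and 2 in place of 3 and 7. With library numbers 1 to 111 alone, the differences had 3 and 1 calls and the mutants without bacteria 0 and 2. With numbers 112 to 222 alone, Col-0 had 20 calls higher, the mutants with a strain 16, the differences 2 and 0, and the mutants without bacteria 1 higher. With only the groups of a contrast in the fit, the differences had 2 and 0 calls, and without a filter 1 lower. Without the 4 libraries that stood apart, the mutants without bacteria had 4 calls higher and 8 lower. The mutants with a strain then had 25 and 10, and the differences 6 and 3. Leaving out 1 replicate number, in all NB groups or all strain groups, gave 4 to 7 differences higher and 1 to 4 lower, and 0 to 4 calls higher without bacteria. The cause of these changes was not tested, beyond the fewer libraries in each range. Of the calls, 38 of 43 in Col-0, 28 of 35 in mutants with a strain, 2 of 9 differences and 3 of 10 without bacteria held in every fit without 1 replicate. No paired analysis was possible because the labels carry no replicate number that groups share, so single libraries could not be matched. The ranges of library numbers, with 3 libraries of each group in each, were the only block common to all groups, and as a covariate they left every count of calls as it was. ACS1, ACS4 and ACS8 were limited by depth.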
